A study of Caenorhabditis elegans with 24 samples.

Results

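The J-domain proteins and HSP70 cofactors of C. elegans were followed through a heat shock in animals with and without cytosine-5 RNA methylation. They were taken as all genes whose symbol is dnj- followed by a number, together with the cofactor genes hsp-110, bag-1, unc-23 and chn-1. This gave 29 dnj genes and 4 cofactors, 33 of the 20447 genes in the count files. They were taken by name and not by any measured value, though earlier results of these data were known when they were chosen. Wild-type animals (N2) were compared with noNSUN animals, a strain made to lack 5-methylcytosine (m5C) in RNA that carries the deletion nsun-5(tm3898) together with catalytic point mutations in nsun-4(mj457), in nsun-2(mj458) and in nsun-1(mj473). Synchronised adults of both strains had been raised at 20 °C on HB101 bacteria and moved to liquid S-medium with the same bacteria, where they were kept for 4 h at 20 °C or at 27 °C. Each lysate of whole animals gave an RNA-seq library from input RNA and a ribosome profiling library of ribosome-protected fragments (RPFs) taken from the 80S monosome fraction, with 3 replicates in each of the 8 groups and 24 libraries in all. Since whole animals were measured, fewer cells of a type and less RNA per cell cannot be told apart.

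HSP70 chaperones bind and release unfolded stretches of protein in a cycle driven by ATP. J-domain proteins deliver these substrates and switch on ATP hydrolysis by HSP70 through a histidine-proline-aspartate (HPD) motif in the J domain, and nucleotide exchange factors such as HSP110 and the BAG-domain proteins then reopen the cycle, while the CHIP ubiquitin ligase (chn-1) marks bound clients for degradation. Different J-domain proteins serve the HSP70 of the cytosol, of the endoplasmic reticulum (ER) or of mitochondria. In C. elegans, DNJ-13 works with HSP-1 and HSP-110 to take protein aggregates apart.

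The HPD codons were found in the coding sequence of 28 of the 29 dnj genes, the exception being dnj-5. The coding strand around them is shown for 4 members on which the results below turn, because it is the element that defines the family. The HPD codons are in capitals with 30 coding bases on each side, read from the WBcel235 genome along the spliced coding sequence.
dnj-19: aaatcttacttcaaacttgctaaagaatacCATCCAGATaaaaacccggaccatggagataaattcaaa
dnj-13: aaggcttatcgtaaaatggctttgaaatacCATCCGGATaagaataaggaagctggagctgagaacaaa
dnj-20: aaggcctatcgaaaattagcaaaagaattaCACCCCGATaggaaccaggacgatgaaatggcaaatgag
dnj-7: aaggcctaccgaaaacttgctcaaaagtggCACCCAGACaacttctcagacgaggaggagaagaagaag
The motif lay near the start of the protein, its histidine at codon 41 in dnj-19, 32 in dnj-13 and 52 in dnj-20, and towards the end, at codon 407 of 491, in dnj-7. Among all 33 coding sequences the cysteine-rich repeat of type A J-domain proteins occurred 3 times each in dnj-10, dnj-12 and dnj-19 and was not found in the others.

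The RNA libraries held 1918731 to 3412334 counts (median 2715851) and the RPF libraries 22761 to 396184 (median 61177.5). The members took 0.336 to 0.413% of the RNA counts and 0.33 to 0.612% of the RPF counts. All 33 passed the filter on low counts in RNA, where 10815 genes were tested, but only 10 passed it in RPF (dnj-7, dnj-11, dnj-12, dnj-13, dnj-19, dnj-20, dnj-23, dnj-29, dnj-30 and hsp-110, among 1624 genes). The other 23 had 1 to 154 RPF counts summed over 12 libraries, and 1 to 12 members had no count at all in any one RPF library. The heat treatment was visible in the inducible HSP70 gene hsp-70, with RNA counts of 7, 12 and 13 in wild type at 20 °C and 352, 141 and 199 at 27 °C, and of 10, 6 and 5 and 361, 151 and 292 in noNSUN. Oocyte, intestine, muscle and adult epidermis marker lists were detected in every library, while 5 sperm markers summed to at most 1.43 CPM (counts scaled to a common library size). The wild-type 20 °C replicate 1 library stood apart, with 5 muscle markers at 8153 CPM in sum against 4098 and 4446 in the other 2 libraries of its group, 5 intestine markers at 43880 against 86136 and 89595, 5 oocyte markers at 4565 against 8327 and 8044, 3 adult epidermis markers at 387 against 833 and 916, and 4 moulting markers at 508 against 174 and 181. Replicate 1 was also the library with the most moulting and muscle marker RNA and the least oocyte, intestine and epidermis marker RNA in each of the other 3 groups, with moulting markers at 262, 225 and 195 CPM.

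Levels are given as CPM of the scaled library size, for replicates 1, 2 and 3 in that order, and where a sentence gives both temperatures without naming them, 20 °C comes first. Per kilobase of exon, the most abundant members in RNA were hsp-110, dnj-19, dnj-12, dnj-5 and dnj-13, at 216, 191, 166, 156 and 139 CPM per kilobase over the 12 libraries. These are the cytosolic HSP110 exchange factor, the type A proteins DNJ-19 and DNJ-12, a dnj gene without HPD codons and the type B protein DNJ-13. The least abundant were dnj-3, dnj-26 and dnj-18, at 10.03, 13.03 and 15.7 CPM per kilobase. The median member lay at the 65.0th percentile of all genes tested.

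Heat shock raised the RNA of dnj-19 in both genotypes, and dnj-12, bag-1 and dnj-7 were called or not according to whether the replicate number was a term of the fit. Without it, at an adjusted p under 0.05 (edgeR quasi-likelihood test, Benjamini-Hochberg adjustment over all genes tested), 1 of 33 members was higher and 0 lower at 27 °C in wild type, where 0.472% of all genes were higher and 0.472% lower. In noNSUN 1 of 33 was higher and 0 lower, against 0.472% and 0.564% of all genes. At an unadjusted p under 0.05 there were 5 of 33 members in each genotype, all higher (dnj-7, dnj-12, dnj-15, dnj-19 and bag-1). Of all 10815 genes, 1055 in wild type and 984 in noNSUN were under it, in either direction. With the replicate number as a block, since same-numbered RNA libraries deviated together, 3 of 33 members were higher and 0 lower in each genotype, dnj-19, dnj-12 and bag-1 in wild type (1.82% of all genes higher, 2.42% lower) and dnj-19, dnj-12 and dnj-7 in noNSUN (1.86% and 2.24%). The shared deviations set replicate 1 apart, while replicates 2 and 3 also deviated together across groups. DESeq2 without a block called 2 members as higher in each genotype, dnj-19 and dnj-12, where the wild-type calls took 0.647% of all genes as higher and 0.999% as lower, and the noNSUN calls 0.675% and 0.952%. The median log2 fold change of the members was 0.11 in wild type and 0.07 in noNSUN, beside -0.01 and 0.01 over all genes tested, with 22 and 20 of 33 members above 0. The sum of 5 intestine markers was 43880 to 89595 CPM in wild type at 20 °C and 51942 to 62385 CPM at 27 °C, and 74645 to 84344 CPM and 49590 to 69137 CPM in noNSUN, where the temperatures did not overlap. The sum of 3 adult epidermis markers was 387 to 916 CPM and 389 to 618 CPM in wild type, and 1254 to 1436 CPM and 640.5 to 1025 CPM in noNSUN, again without overlap in noNSUN. The part of these markers in the members' values was not tested.

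dnj-19 encodes a cytosolic type A J-domain protein and lies at chrV:5503033-5504857 on the minus strand. In wild type the RNA level was 211, 231 and 239 CPM in the 20 °C libraries and 384, 363 and 372 CPM in the 27 °C libraries. The noNSUN levels were 239, 235.0 and 243 CPM and, with heat shock, 367, 305 and 330.3 CPM. Every heat-shocked library exceeded every 20 °C library of either genotype. The rise was 1.64-fold in wild type (log2 0.72 ± 0.09 SE, adjusted p = 0.00110) and 1.40-fold in noNSUN (log2 0.48 ± 0.09 SE, adjusted p = 0.0209). The difference between the responses did not pass the test (log2 -0.23 ± 0.13 SE, adjusted p = 1.00). Without the wild-type 20 °C replicate 1 library, which stood apart, the rise in wild type was 0.65 on the log2 scale (adjusted p = 0.000910), and with only the 2 wild-type groups fitted it missed the threshold (0.71, adjusted p = 0.0580, within 2.37e-09 to 0.290 over all alternatives). The call in noNSUN held without replicate 2 at 27 °C (0.55, adjusted p = 0.0306) and was lost on leaving out any other library of the comparison. Without replicate 1, 2 or 3 at 20 °C the log2 value was 0.48, 0.47 or 0.50 (adjusted p = 0.114, 0.119 and 0.110), and without replicate 1 or 3 at 27 °C it was 0.41 or 0.48 (adjusted p = 0.120 and 0.1001).

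Of the other cytosolic J-domain proteins, dnj-12 passed the adjusted test only with the replicate block or in some of the other alternatives, and dnj-13 and dnj-24 passed it neither with nor without the block. dnj-12, the second type A gene, was at 241, 239.7 and 245 CPM in wild type at 20 °C and 333, 298 and 354 CPM at 27 °C. In noNSUN it was at 214, 241 and 247 CPM and 327, 269 and 331 CPM. The temperatures did not overlap in either genotype, with log2 fold changes of 0.44 ± 0.10 SE (adjusted p = 0.0753) and 0.40 ± 0.10 SE (adjusted p = 0.117). With the replicate block dnj-12 was called in wild type (log2 0.44, adjusted p = 0.00525) and in noNSUN (log2 0.40, adjusted p = 0.0123), in ranges of 0.00413 to 0.999 and 0.0123 to 1.00 over all alternatives. dnj-13, the type B partner of HSP-110, was at 176, 214 and 193 CPM in wild type at 20 °C and 215, 148 and 216 CPM at 27 °C, and in noNSUN at 187, 210.2 and 202 CPM and 211, 168 and 190.3 CPM. Its heat-shocked libraries lay on both sides of the 20 °C libraries. dnj-24 ranged from 22.4 to 35.2 CPM over the 12 libraries.

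**Figure D1:**
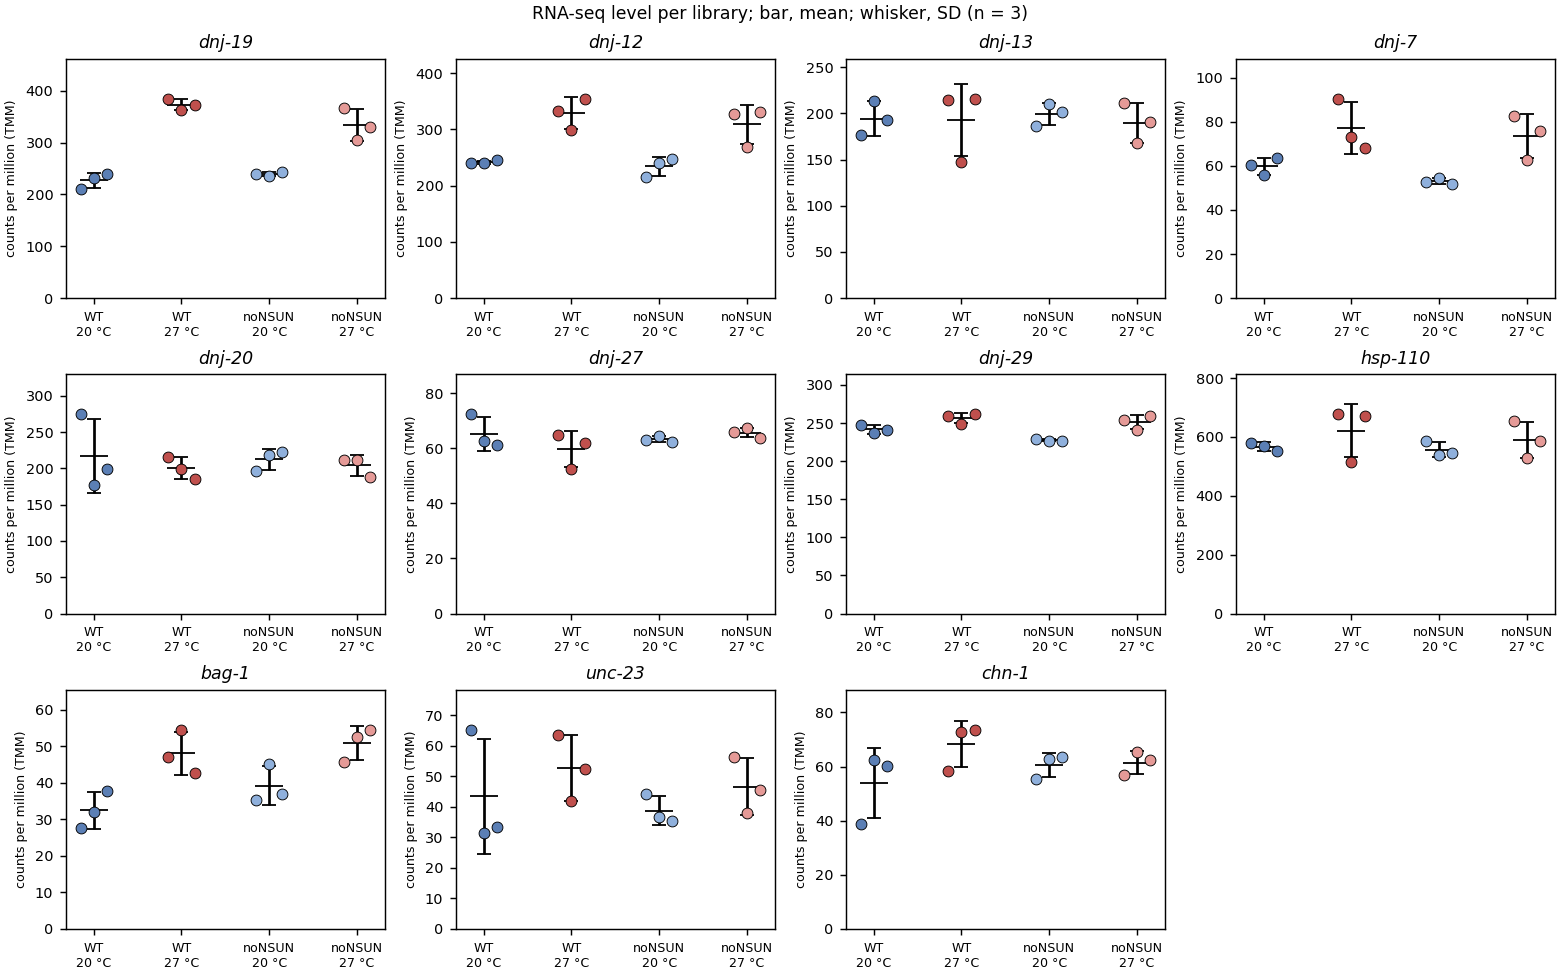
RNA level of 11 members in each library (y axis, CPM; x axis, genotype and temperature; points are libraries, bars the mean and whiskers the SD of 3 replicates). The 27 °C libraries of dnj-19, at 305 to 384 CPM, all lie above its 20 °C libraries, at 211 to 243 CPM, whereas those of dnj-13, dnj-20 and hsp-110 overlap.

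In the ER group no member passed the adjusted test without a block, and dnj-7 passed it in noNSUN with the replicate block. The 6 ER members, dnj-1 and dnj-28 among them, ranged from -0.12 to 0.37 in wild type and from -0.11 to 0.48 in noNSUN on the log2 scale. dnj-7, related to the p58IPK co-chaperone, was at 60.4, 55.7 and 63.5 CPM in wild type at 20 °C and 90.3, 72.9 and 67.9 CPM at 27 °C, and at 52.8, 54.4 and 51.7 CPM and 82.4, 62.6 and 75.8 CPM in noNSUN. The temperatures did not overlap in either genotype (log2 0.37 ± 0.13 SE, adjusted p = 0.329 in wild type, and 0.48 ± 0.14 SE, adjusted p = 0.160 in noNSUN). The blocked value in noNSUN was log2 0.47, adjusted p = 0.0319 (0.0319 to 1.00 over all alternatives). dnj-29, the SEC63 subunit of the protein translocation machinery, was at 248, 237 and 240.3 CPM and 259, 249 and 261 CPM in wild type at the lower and the higher temperature, and at 229, 227 and 226 CPM and 254, 241 and 259 CPM in noNSUN. The temperatures stood apart, by group means of 242 ± 5.46 against 257 ± 6.42 CPM and 227 ± 1.48 against 251 ± 9.47 CPM (SD, n = 3), a difference that did not pass the test. dnj-20, related to ERdj3, was at 274, 178 and 198 CPM in wild type at 20 °C and 215, 199.7 and 186 CPM at 27 °C, and at 196, 218 and 222 CPM and 212, 212 and 188 CPM in noNSUN. dnj-27, the ERdj5-type protein with thioredoxin-like domains, was at 72.3, 62.4 and 61.0 CPM and 64.9, 52.4 and 61.8 CPM in wild type, and at 63.1, 64.4 and 62.2 CPM and 65.9, 67.2 and 63.8 CPM in noNSUN. The highest dnj-20 and dnj-27 values both came from the wild-type 20 °C replicate 1 library, and the temperatures overlapped for both genes. The part of the marker differences of that library in these values was not tested.

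Of the cofactors, none passed the adjusted test without a block, and bag-1 passed it in wild type with the replicate block. bag-1, a BAG-domain exchange factor, was at 27.7, 32.0 and 37.8 CPM in wild type at 20 °C and 47.1, 54.3 and 42.7 CPM at 27 °C, and at 35.4, 45.2 and 37.0 CPM and 45.8, 52.4 and 54.5 CPM in noNSUN. The temperatures did not overlap in either genotype (log2 0.56 ± 0.16 SE, adjusted p = 0.152, and 0.37 ± 0.15 SE, adjusted p = 0.459). The blocked value in wild type was log2 0.57, adjusted p = 0.0249 (0.0249 to 0.937 over all alternatives). hsp-110 was at 581, 568 and 553 CPM in wild type at 20 °C and 677, 516 and 671 CPM at 27 °C, and at 585, 539 and 545 CPM and 655, 530.0 and 585 CPM in noNSUN. In each genotype its replicate 2 library at 27 °C lay below all 3 libraries at 20 °C, so the temperatures overlapped. unc-23, a BAG-domain protein needed for muscle attachment, was at 65.3, 31.6 and 33.4 CPM in wild type at 20 °C and 63.5, 41.9 and 52.5 CPM at 27 °C, and at 44.3, 36.7 and 35.3 CPM and 56.3, 38.0 and 45.6 CPM in noNSUN. Replicate 1 was the highest of the 3 libraries in all 4 groups, and so was the sum of the 5 muscle markers, at 8153, 5385, 5056 and 4664 CPM in wild type at 20 °C and 27 °C and in noNSUN at 20 °C and 27 °C, against 3781 to 4446 CPM in the other libraries; their part in the unc-23 values was not tested. The log2 value of unc-23 in wild type was 0.29 ± 0.26 SE (adjusted p = 0.815), and 0.69 without the 20 °C replicate 1 library (adjusted p = 0.0811) and 0.53 without replicate 1 of every group (adjusted p = 0.0473), in a range of 0.0473 to 0.999 over all alternatives. chn-1 was at 38.95, 62.4 and 60.4 CPM in wild type at 20 °C and 58.4, 72.9 and 73.6 CPM at 27 °C, and at 55.4, 62.7 and 63.5 CPM and 56.8, 65.4 and 62.3 CPM in noNSUN, with overlap in both genotypes.

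Among the mitochondrial group, dnj-15, related to the iron-sulphur cluster co-chaperone HSCB, had log2 fold changes of 0.42 ± 0.18 SE in wild type (adjusted p = 0.448) and 0.51 ± 0.18 SE in noNSUN (adjusted p = 0.326) at 14.04 to 28.4 CPM. dnj-21, the TIM14 subunit of the mitochondrial import motor, had values of 0.76 ± 0.37 SE (adjusted p = 0.541) and 0.57 ± 0.39 SE (adjusted p = 0.771) at 3.87 to 12.9 CPM. With dnj-10, all 3 mitochondrial members were above 0 in both genotypes and none was called. The 7 specialised members, which include dnj-14 (cysteine string protein of synaptic vesicles) and dnj-25 (auxilin of clathrin uncoating), ranged from -0.06 to 0.22 in wild type and from -0.19 to 0.10 in noNSUN on the log2 scale. The 9 members with no role assigned ranged from -0.27 to 0.39 and from -0.15 to 0.37. Over all members, the 3 libraries at 27 °C lay above the 3 at 20 °C for 8 of 33 in wild type (24.2%), where 6.84% of all genes did so, and for 7 of 33 in noNSUN (21.2%), against 9.51%. The reverse separation occurred for 0 members in either genotype, against 6.05% and 9.36% of all genes. The members higher without overlap in both genotypes were 6, namely bag-1, dnj-7, dnj-12, dnj-15, dnj-19 and dnj-29. The share of all genes higher without overlap in both genotypes was not counted, so this number has no background beside it.

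**Figure D2:**
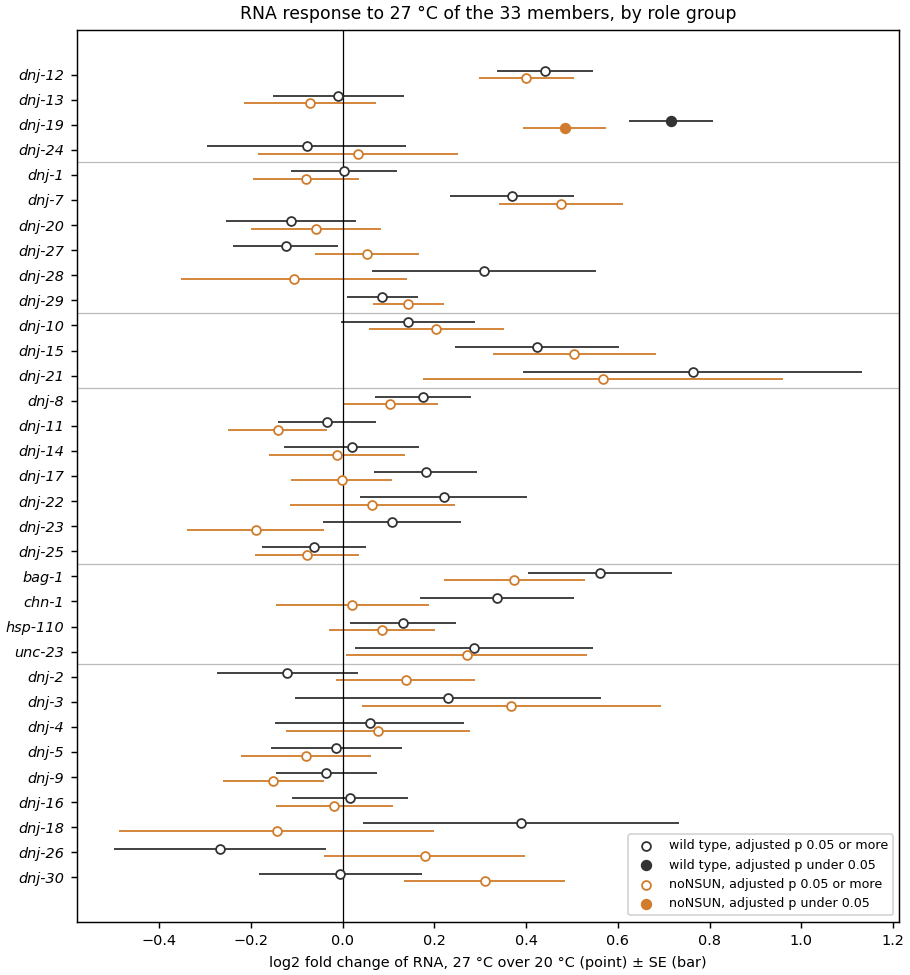
Log2 fold change of RNA at 27 °C over 20 °C for all 33 members (x axis; bars are the SE), grouped from top to bottom as cytosolic, ER, mitochondrial, specialised, cofactor and unassigned members. Only dnj-19, at 0.72 in wild type and 0.48 in noNSUN, is drawn filled, for an adjusted p under 0.05 without a replicate block.

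The HSP70 proteins themselves and their other partners were examined beside the members. Of 10 genes listed as HSP70 family, 2 were higher and 0 lower at 27 °C in each genotype, hsp-70 and the ER HSP70 gene hsp-4 (one of the 10, F11F1.1, is named for another domain in the RefSeq annotation). hsp-4 went from 413 ± 54.7 CPM at the lower temperature to 685 ± 54.3 CPM in wild type (SD, n = 3; log2 0.73 ± 0.12 SE, adjusted p = 0.00742) and from 379 ± 24.2 to 632 ± 60.9 CPM in noNSUN (log2 0.74 ± 0.12 SE, adjusted p = 0.00660). hsp-1, the constitutive cytosolic HSP70 that DNJ-13, DNJ-12 and DNJ-19 serve, was at 3249 ± 24.6 and 3671 ± 404 CPM in wild type and was not called. In noNSUN it was at 3014 ± 226 and 3647 ± 385 CPM and was not called either. Its RPF level was 7528 ± 882 and 12033 ± 498 CPM in wild type and 8172 ± 1503 and 11948 ± 1458 CPM in noNSUN. In RPF hsp-1 was not called without a block, and was called in wild type with the replicate block. Of 7 other HSP70 partners, 2 were higher in wild type and 1 in noNSUN. sti-1, the HOP adaptor between HSP70 and HSP90, went from 164 ± 12.81 to 252 ± 15.0 CPM in wild type (adjusted p = 0.0172) and from 159 ± 16.18 to 269 ± 29.9 CPM in noNSUN (adjusted p = 0.00434). hip-1, a co-chaperone that slows release of nucleotide from HSP70, went from 172 ± 22.999 to 276 ± 28.1 CPM in wild type (adjusted p = 0.0175), while in noNSUN, at 179.6 ± 17.3 and 267 ± 26.7 CPM, it missed the threshold (adjusted p = 0.0504). The wild-type calls of hsp-4, sti-1 and hip-1 held under 10 of 14, 7 of 14 and 8 of 14 alternative settings, with log2 fold changes of 0.57 to 0.83, 0.51 to 0.70 and 0.54 to 0.79. The noNSUN calls of hsp-4 and sti-1 held under 10 of 14 and 12 of 14, with 0.68 to 0.81 and 0.62 to 0.87. Among single libraries, the wild-type call of hsp-4 was lost without replicate 3 at 27 °C (adjusted p = 0.0506) and its noNSUN call without replicate 2 at 20 °C or 3 at 27 °C (adjusted p = 0.0641 and 0.0517). In wild type, sti-1 was lost without replicate 3 at 20 °C or any library at 27 °C (adjusted p = 0.0798, 0.0908, 0.0556 and 0.0738), and hip-1 without replicate 3 at 20 °C or replicate 1 or 2 at 27 °C (adjusted p = 0.1003, 0.0925 and 0.0885). With the replicate block, 4 of the 10 HSP70 genes were higher in wild type and 6 in noNSUN, and 2 of the 7 partners in each, hip-1 in noNSUN included (log2 0.58, adjusted p = 0.00498, within 2.90e-05 to 1.00 over all alternatives). The HSP70 genes called in each genotype include F44E5.5, which passed the filter on low counts in RNA only through 27 °C libraries.

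Heat-shock elements, the binding sites of the heat-shock factor HSF-1, were searched for in the 250 bases before and 50 bases after each annotated gene start, as 3 alternating units of TTC and GAA, each 2 bases apart, on both strands. They occurred in 3 of 33 members (9.09%), bag-1, dnj-12 and hsp-110, and in 393 of 19984 promoters of protein-coding genes (1.97%). The 2-unit form occurred in 12 of 33 members (36.4%) and 32.5% of all promoters. Neither form was found for dnj-19, whereas hsp-110, whose RNA libraries overlapped between temperatures, held 2 matches. The upstream part of the hsp-110 window is shown because both matches lie in it; on the minus strand of WBcel235, chrIII:8446992-8447159, with the 2 matches in capitals, it reads as follows.
hsp-110: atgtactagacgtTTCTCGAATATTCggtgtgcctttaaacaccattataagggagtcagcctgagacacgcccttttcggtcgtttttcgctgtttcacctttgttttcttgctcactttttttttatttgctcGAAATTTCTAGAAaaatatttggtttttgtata
A match describes these letters only, and binding was not measured.

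In ribosome profiling, dnj-19 was called as higher after heat shock in noNSUN only, while the difference between the genotypes' responses was not called. Of the 10 members tested, 0 were higher and 0 lower in wild type (edgeR quasi-likelihood test; 1 at an unadjusted p under 0.05, and 0 with DESeq2), where 0.924% of all genes tested were higher and 0.369% lower. In noNSUN 1 of 10 was higher and 0 lower, against 1.05% and 2.4% of all genes. An unadjusted p under 0.05 was reached by 172 of all 1624 genes in wild type. In noNSUN it was reached by 2 of 10 members and by 268 of 1624 genes. The median log2 fold change of the 10 was 0.43 in wild type and 0.27 in noNSUN, beside 0.00 and 0.00 over all genes tested.

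dnj-19 had RPF counts of 27, 96 and 58 in wild type at 20 °C and 108, 44 and 16 at 27 °C, and of 29, 41 and 26 and 248, 465 and 33 in noNSUN. As CPM these were 749, 963 and 1214 against 1451, 1772 and 965 in wild type, where replicate 3 at 27 °C lay within the 20 °C range. In noNSUN they were 437, 1002 and 1023 against 2058, 1575 and 1419.7, without overlap. The rise in noNSUN was 2.20-fold (log2 1.14 ± 0.29 SE, adjusted p = 0.0218), and the wild-type value was log2 0.54 ± 0.29 SE (adjusted p = 0.553). The call was lost without noNSUN replicate 1 at 20 °C (log2 0.76, adjusted p = 0.326) or at 27 °C (log2 0.97, adjusted p = 0.118), over a range of 0.00494 to 0.383 under all alternatives. The difference between the responses did not pass the test (log2 0.60 ± 0.41 SE, adjusted p = 0.869). Depth also differed, with 101435, 34100 and 22761 RPF counts in the wild-type 27 °C libraries and 162712, 396184 and 31776 in those of noNSUN.

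dnj-12 had RPF levels of 582, 472 and 461 CPM in wild type at 20 °C and 672, 725 and 724 CPM at 27 °C, and of 482, 391 and 944 CPM and 996, 888 and 1032 CPM in noNSUN. The temperatures were apart in wild type and overlapped in noNSUN, where replicate 3 at 20 °C held 24 counts (log2 0.49 ± 0.30 SE, adjusted p = 0.631, and 0.75 ± 0.28 SE, adjusted p = 0.143). Without that library dnj-12 was called in noNSUN as well (log2 1.095, adjusted p = 0.0304, within 0.0304 to 0.602 under all alternatives). Then 2 of 10 members were higher, a count without the share of all genes in that setting beside it. hsp-110 was at 1054, 1174 and 942 CPM in wild type at 20 °C and 1290.1, 1530.3 and 1327 CPM at 27 °C, which did not overlap (log2 0.37 ± 0.24 SE, adjusted p = 0.668), and in noNSUN at 1055, 1099 and 1102 CPM and 1228, 1027 and 1635 CPM, which did (log2 0.19 ± 0.24 SE, adjusted p = 0.732). dnj-13 was at 333, 472 and 691 CPM and 941, 483 and 724 CPM in wild type (log2 0.59 ± 0.33 SE, adjusted p = 0.565; 0.05 to 0.86 over all alternatives), and at 678, 659.7 and 708 CPM and 1145, 576 and 731 CPM in noNSUN. Its libraries overlapped in both genotypes.

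dnj-7 was thinly covered in ribosome profiling, with RPF counts of 6, 9 and 5 in wild type at 20 °C and 18, 7 and 4 at 27 °C, and 11, 7 and 4 and 15, 45 and 3 in noNSUN. As CPM it lay at 166, 90.3 and 105 against 242, 282 and 241 in wild type and at 166, 171 and 157 against 124, 152 and 129 in noNSUN. The heat-shocked libraries were thus all above the 20 °C libraries in wild type and all below them in noNSUN. dnj-7 passed the filter on low counts only through the wild-type 27 °C libraries, where it was highest. Its higher level there was therefore not independent of its being tested. Of all 1624 genes tested, 108 showed the first separation and 179 the second, and genes with both were not counted. Neither change of dnj-7 passed the adjusted test (log2 1.16 ± 0.50 SE, adjusted p = 0.389, and -0.25 ± 0.46 SE, adjusted p = 0.841), nor did their difference (log2 -1.40 ± 0.68 SE, unadjusted p = 0.0495, adjusted p = 0.840). dnj-29 was at 471, 532 and 356 CPM and 282, 322 and 483 CPM in wild type, and at 271, 489 and 197 CPM and 299, 373 and 215 CPM in noNSUN, with overlap in both. dnj-20 had at most 17 counts in any library but 1, and its wild-type 20 °C replicate 1 library held 0 counts, which allows up to 3 counts. Of the HSP70 family, 4 of 8 genes tested were higher in RPF in each genotype, namely hsp-70, the near-identical neighbours F44E5.4 and F44E5.5, whose counts cannot be told apart with certainty, and hsp-4 (log2 1.15 ± 0.25 SE, adjusted p = 0.0108 in wild type, and 1.13 ± 0.26 SE, adjusted p = 0.00754 in noNSUN). hsp-70, F44E5.4 and F44E5.5 passed the filter on low counts only through 27 °C libraries, so their part of this count was largely set by the filter. hsp-70 had 0 RPF counts in every 20 °C library. The hsp-4 calls in RPF held under 8 of 14 alternative settings in wild type and 12 of 14 in noNSUN, with adjusted p of 0.00251 to 0.309 and 0.00226 to 0.143; single libraries whose omission ended them were wild-type replicates 1 and 3 at 20 °C and 2 at 27 °C (adjusted p = 0.0516, 0.0532 and 0.0751) and noNSUN replicate 1 at 20 °C (adjusted p = 0.104).

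**Figure D3:**
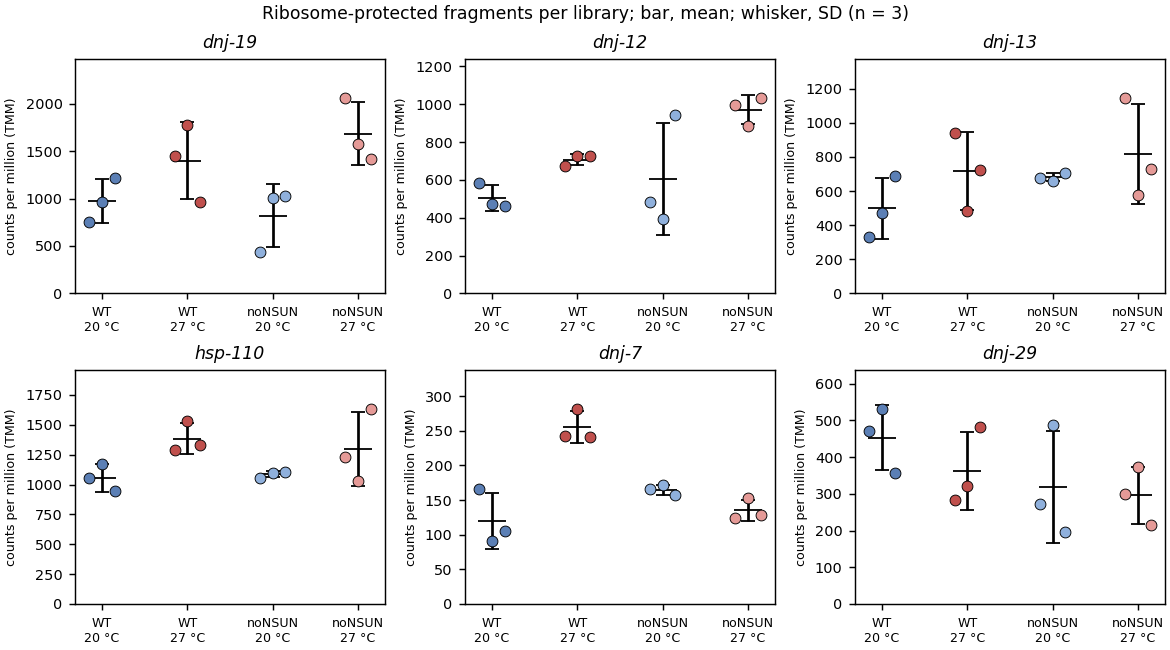
Ribosome-protected fragment level of 6 members in each library (y axis, CPM; x axis, genotype and temperature; points are libraries, bars the mean and whiskers the SD of 3 replicates). dnj-19 in noNSUN lies at 437 to 1023 CPM at 20 °C and 1420 to 2058 CPM at 27 °C, and the dnj-7 libraries at 27 °C lie above those at 20 °C in wild type and below them in noNSUN, on 3 to 45 counts.

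The genotypes were compared at each temperature to ask whether loss of m5C altered the members. In RNA 0 of 33 members were called at 20 °C, where 0.0832% of all genes were, and 0 of 33 at 27 °C, against 0.0277% (edgeR quasi-likelihood test, with 0 and 1 members at an unadjusted p under 0.05 and 0 and 0 with DESeq2). Of all 10815 genes, 491 and 306 had an unadjusted p under 0.05. The log2 differences of noNSUN from wild type lay between -0.39 and 0.28 at 20 °C and between -0.59 and 0.60 at 27 °C, with medians of 0.02 and -0.03. The sum of 3 adult epidermis markers was 387 to 916 CPM in wild type and 1254 to 1436 CPM in noNSUN at 20 °C, and 389 to 618 CPM and 640.5 to 1025 CPM at 27 °C, and its part in these differences was not tested. The upper end at 27 °C was dnj-26, at 10.3, 14.3 and 15.4 CPM in wild type and 16.481, 23.2 and 20.5 CPM in noNSUN (log2 0.60 ± 0.23 SE, unadjusted p = 0.0217, adjusted p = 1.00). In RPF 0 of 10 were called at 20 °C (1.72% of all genes) and 0 of 10 at 27 °C (0.0616%), with 0 and 0 at an unadjusted p under 0.05 and 0 and 0 with DESeq2. Of all 1624 genes, 275 and 120 had an unadjusted p under 0.05. The heat responses of the genotypes differed for 0 of 33 members in RNA (0.0% of all genes called) and 0 of 10 in RPF (0.0%), with 0 and 1 at an unadjusted p under 0.05 and 0 and 0 with DESeq2. Over all genes, the unadjusted numbers were 125 of 10815 in RNA and 84 of 1624 in RPF.

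Translation efficiency (TE), the RPF level relative to the RNA level, was tested for the same 10 members among 1599 genes. In TE 0 of 10 were called for heat in wild type (0.0% of all genes), for heat in noNSUN (0.0%), for genotype at 20 °C (0.25%), for genotype at 27 °C (0.0%) and for the difference of the heat responses (0.0%), by edgeR quasi-likelihood tests and by DESeq2. At an unadjusted p under 0.05 the numbers over all genes were 96, 188, 265, 96 and 133 of 1599. Among the members they were 1, 1, 0, 2 and 2 of 10. These members were dnj-29 for heat in wild type (log2 -0.63 ± 0.30 SE, adjusted p = 0.809) and dnj-19 for heat in noNSUN (log2 0.71 ± 0.30 SE, adjusted p = 0.353, with log2 0.25 to 0.92 over all alternatives). At 27 °C they were dnj-12 (log2 0.56 ± 0.25 SE, adjusted p = 0.746) and dnj-7 (log2 -0.76 ± 0.33 SE, adjusted p = 0.819) in noNSUN against wild type. The difference of the heat responses was log2 0.92 ± 0.43 SE for dnj-19 (adjusted p = 0.591) and -1.46 ± 0.49 SE for dnj-7 (adjusted p = 0.499). For dnj-7, DESeq2 gave log2 -1.52 with a larger SE of 0.63. The gene entered these tests only through its high RPF level in wild type at 27 °C, so its values are not independent of the filter.

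Since the study examined codons for leucine, UUG among them, and for proline, their share was counted in each member. UUG made up a median of 1.54% of a member's codons, against a median of 1.94% over 19927 genes. Leucine codons had a median of 7.06% against 8.67%, and proline codons 4.02% against 4.33%. Over all coding sequences pooled, UUG made up 2.02% of codons, a share that 9 of 33 members exceeded. The UUG share ran from 0.249% in dnj-12, a single codon in 402, to 3.57% in dnj-21 and 3.33% in bag-1. unc-23 had the largest proline share among the members, 10.04%. The 10 members with a TE test held 0.249 to 2.52% UUG, so the members richest in this codon were not tested for TE at this depth. Even the highest UUG share, 3.57% against 2.02% pooled, lay below the enrichment at which the study counted a gene as rich in a codon.

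RPF and RNA levels per length were set side by side over all 12 lysates to describe how the members rank in ribosome occupancy. The log2 ratio of mean RPF level per coding length to mean RNA level per exon length had a median of 0.55 over 10522 genes with both, and quartiles of -0.39 and 1.43. Since each assay was scaled on its own, only the order of genes is read from it. Of the 33 members, 12 lay above the upper quartile and 6 below the lower. Those above include dnj-21 and dnj-24, which rest on only 14 and 29 RPF counts in all. The cytosolic dnj-13, dnj-19 and dnj-12 lay at 2.34, 2.31 and 1.83 (91.6th, 91.4th and 84.1st percentile), hsp-110 at 1.28 (71.4th) and the highest, dnj-23, at 3.12 (97.4th). dnj-5 lay towards the other end. It had 18610 RNA counts, more than any other member, but only 73 RPF counts, a log2 ratio of -2.53 at the 2.44th percentile, and a ratio of 0 to 0.631 in the 12 lysates. hsp-110, with 18422 RNA counts, had 988 RPF counts. dnj-5 is the dnj gene without HPD codons, its exons overlap those of another gene by 36 of 3761 bases, and the cause of its low ratio was not tested. dnj-18 and dnj-4 had lower ratios still, -4.02 and -2.88, on 1 and 3 RPF counts.

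**Figure D4:**
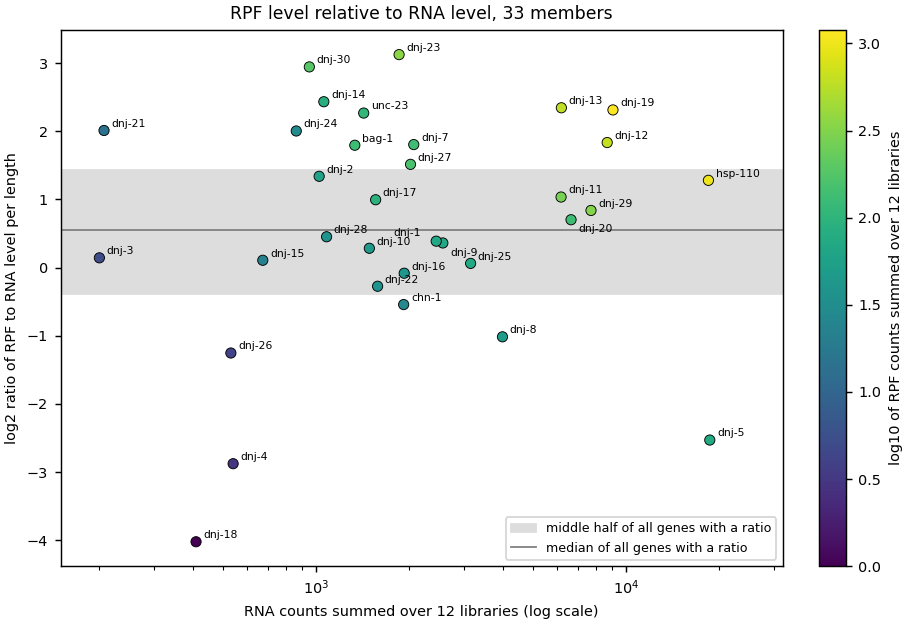
Log2 ratio of RPF level to RNA level per length (y axis) against RNA counts summed over 12 libraries (x axis, log scale) for the 33 members, coloured by RPF counts. The grey band spans the quartiles of 10522 genes, -0.39 to 1.43, and dnj-5 lies at -2.53 with 18610 RNA counts.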

How the data were processed

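RNA-seq and ribosome profiling counts were analysed for 24 libraries of whole adults, 1 file per library. The authors deposited raw counts per gene. Per their methods, RNA reads were trimmed with Trimmomatic 0.39, freed of rRNA with SortMeRNA, aligned to WBcel235 with HISAT2 2.1.0 and counted with HTSeq-count (version, strand setting and annotation release not given in the sources used here). RPFs of 26 to 30 bases were uniquely aligned, shifted by 12 bases and kept where they fell in the longest coding sequence past its first 10 codons. No molecular identifiers are described, so counts are not independent molecules.

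Groups came from the labels. The study states biological replicates, but not whether each was a separate culture, so p-values measure the spread between these samples. Fits were made in R 4.3.3 with edgeR 4.0.16 (TMM within each assay, filterByExpr with minimum count 10 and minimum total 15, quasi-likelihood tests, 1 coefficient per group over the 12 libraries of an assay, no block), with Benjamini-Hochberg adjustment over all genes and a threshold of 0.05, two-sided. Deviations of same-numbered RNA libraries from their group means correlated by 0.181 to 0.665 in the 12 pairs of the groups compared, each over 0.1. Differently numbered RNA libraries correlated by -0.566 to 0.426, over 0.1 in 12 of 36 pairs. Wild-type replicate 2 at 20 °C correlated by 0.426 with replicate 3 at 27 °C and by 0.197 with replicate 2. By the data, and not by the labels, the numbers thus set replicate 1 apart but did not clearly pair replicates 2 and 3. Values with the replicate block stand beside those they change. TE was the interaction of assay and group over 24 libraries. Standard errors were obtained from the F statistic, as the absolute log2 fold change over its square root, and can be smaller than those of DESeq2 at low counts. Alternatives were DESeq2 1.42.0, RLE scaling, no filter, only the groups compared, blocks for replicate number or lysate, and leaving out each library or replicate number.

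Gene models were from Ensembl release 115 (20159 of 20447 IDs matched, all 33 members among them), and product names from RefSeq. Exons of 10 members overlap another gene by up to 93 bases. Every member is accounted for. Values by library are given for members called in any contrast and for dnj-7, dnj-12, dnj-13, dnj-19, dnj-20, dnj-27, dnj-29, hsp-110, bag-1, unc-23 and chn-1, and other members named were chosen after their values were seen. Of other HSP70 genes, those called could be named; hsp-1 and F11F1.1 are exceptions. The members and lists were chosen with earlier results of these data known. The fits were also run on simulated counts. These had no shared deviation between same-numbered libraries, unlike the RNA libraries here, and the outcome is not given.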

Additional observations from a re-analysis of the deposited data

Results flagged for a closer look

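The RPF level of dnj-7 differed in its direction with heat between the genotypes: every wild-type library at 27 °C was above those at 20 °C, and every noNSUN library at 27 °C was below. The log2 difference of the responses was -1.40 (edgeR quasi-likelihood test, unadjusted p = 0.0495, adjusted p = 0.840), which did not pass the adjusted test, and 11 of the 12 libraries held 18 or fewer counts of the gene. In RNA, its libraries at 27 °C all lay above those at 20 °C in both genotypes. In RPF, 108 of all 1624 genes were apart and higher in wild type, and 179 were apart and lower in noNSUN. dnj-7 was picked from the 10 members tested because it met both separations. It was among the 10 only because the wild-type libraries at 27 °C, where it was high, passed the filter on low counts. The number of all genes meeting both was not counted, so the pattern has no background beside it.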

How the results depend on the processing

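Of the 15 counts of members called, 12 were 0 in each of the alternatives run. The other 3 moved. In RNA, members called for heat in wild type numbered 2 with DESeq2 and 0 when only the 2 groups compared were fitted, and 0 to 3 when libraries were left out. In noNSUN they numbered 2 with DESeq2 and 0 with no filter on low counts, and 0 to 2 when libraries were left out. In RPF, members called for heat in noNSUN numbered 0 to 2 when libraries were left out, and 0 without replicate 1, 2 or 3 of every group. All 42 fold changes tracked kept their direction. For dnj-19 the log2 rise in RNA was 0.64 to 0.75 in wild type (called in 11 of 14 settings, adjusted p 2.37e-09 to 0.290) and 0.41 to 0.55 in noNSUN (6 of 14, 0.000433 to 0.896). Omitting replicate 2 or replicate 3 of every group removed the dnj-19 calls in RNA (adjusted p = 0.158 and 0.290 in wild type), with 2 libraries left per group. Omitting replicate 1 of every group gave 3 members in wild type (dnj-12, dnj-19 and unc-23) and 2 in noNSUN (dnj-12 and dnj-19). The shares of all genes called with libraries left out are not given here, so these counts are not read as a result about the members. DESeq2 called dnj-12 in wild type (log2 0.43, adjusted p = 0.0185) and noNSUN (0.40, 0.0499), over ranges of 0.00413 to 0.999 and 0.0123 to 1.00 under all alternatives. Over all genes, the RNA heat calls (51 higher and 51 lower in wild type, 51 and 61 in noNSUN) became 70 and 108, and 73 and 103, with DESeq2, 12 and 11, and 98 and 141, with only the groups compared, and 197 and 262, and 201 and 242, with a replicate block. The RNA genotype calls (9 at 20 °C, 3 at 27 °C) became 18 and 8 with DESeq2, 18 and 6 with no filter, 160 and 23 with the block and 0 and 5 with only the groups compared. The RPF calls became 32 and 87 with the block for heat in wild type and noNSUN (21 and 56 before), and for genotype at 20 °C (28) 56 with the block and 9 with no filter, and at 27 °C (1) 2 with DESeq2, 3 with no filter, 6 with the block and 4 with only the groups compared. The TE calls for genotype at 20 °C (4) became 34 with DESeq2, 49 with the block, 22 with a lysate block and 0 with no filter, and those for heat in noNSUN (0) became 14, 12, 19 and 1; DESeq2 gave 1 each for heat in wild type, genotype at 27 °C and the difference of responses (0 each), and the lysate block 3 for genotype at 27 °C. The cause of these changes was not tested.

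In RPF, same-numbered libraries of the groups compared correlated by -0.0886 to 0.267, over 0.1 in 5 of 12 pairs, so the numbers were not taken as pairs there. With a replicate block, 3 members were called for heat in RNA in wild type (dnj-12, dnj-19 and bag-1) and 3 in noNSUN (dnj-7, dnj-12 and dnj-19). The block changed no other count of members called, nor did 1 coefficient per lysate in TE. At this depth, 23 of 33 members could not be tested in RPF or TE.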
